A study of Mus musculus with 18 samples.

Results

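The 10 genes described here encode enzymes of purine and pyrimidine nucleotide synthesis: Cad, Dhodh, Umps and Ctps of the pyrimidine branch, Ppat, Gart, Paics, Atic and Impdh2 of the purine branch, and Nme1, which interconverts nucleotides. They were named for their role, with earlier results of these data known, and no measured value enters the rule. All 10 were found among the 17379 genes of the sgNAT10 mRNA table, the 10974 genes of the footprint table and the 28738 genes of the sgMyc mRNA table, and all 10 passed the filter on low values in each. Acetylated RNA peaks lay in 3 of them, which gave 3 of the 1358 peaks listed.

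The cells were TC1, a mouse tumour line labelled fibrosarcoma, and were either wild type (WT) or carried a guide RNA against Nat10 (sgNAT10) or Myc (sgMyc). No library carried a control guide, and the labels do not say whether an edited line was 1 clone or a pool. Messenger RNA was read in separate sets: sgNAT10 had 2 libraries beside 2 of WT, and sgMyc had 3 beside its own 3 of WT, so the edits share no control library. Ribosome footprints, the RNA pieces that ribosomes protect from digestion, came from 2 WT and 2 sgNAT10 libraries, and acetylated RNA (acRIP) from 1 precipitate and 1 input of each of these genotypes. The labels do not say that replicates were separate cultures, so the p-values measure the spread between these libraries, which may be technical.

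Cells make pyrimidines by building a ring and then attaching it to ribose phosphate, whereas purines are built step by step on the ribose phosphate itself. Proliferating cells rely on this synthesis for RNA and DNA, and several of its genes are textbook targets of the transcription factor MYC, which binds the E-box CACGTG with its partner MAX. NAT10 is an RNA acetyltransferase that makes N4-acetylcytidine.

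The E-box was searched in promoter windows from RefSeq (GRCm38.p6), which reach from upstream of each gene's start to shortly after it. Its letters read the same on both strands. Windows were found for 9 of the 10 genes, all but Dhodh, and CACGTG was present in those of 4, Atic, Paics, Impdh2 and Nme1, against 8.09% of 27025 genes with a window. Of the other genes of nucleotide synthesis and salvage described below, 25 had a window and 2 of these held the motif. The 4 windows with the motif are shown because these genes moved differently from one another in the cells, together with the window of Cad, which holds none. Each is written 5′ to 3′ on the strand of the gene, with the E-box in capitals.
Atic (chr1:71556906-71557205, plus strand): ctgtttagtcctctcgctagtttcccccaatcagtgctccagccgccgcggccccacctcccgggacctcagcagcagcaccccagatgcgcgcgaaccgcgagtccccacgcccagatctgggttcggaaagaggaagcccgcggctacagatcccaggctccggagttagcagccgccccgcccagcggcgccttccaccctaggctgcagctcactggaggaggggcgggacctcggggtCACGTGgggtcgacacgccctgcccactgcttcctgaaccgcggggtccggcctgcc
Paics (chr5:76951052-76951351, plus strand): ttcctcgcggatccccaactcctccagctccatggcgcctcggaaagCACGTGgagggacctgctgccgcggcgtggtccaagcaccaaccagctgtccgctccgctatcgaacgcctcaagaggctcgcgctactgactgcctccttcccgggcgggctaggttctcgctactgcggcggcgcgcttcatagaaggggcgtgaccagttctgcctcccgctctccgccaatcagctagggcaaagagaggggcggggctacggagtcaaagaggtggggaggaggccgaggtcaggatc
Impdh2 (chr9:108560186-108560485, plus strand): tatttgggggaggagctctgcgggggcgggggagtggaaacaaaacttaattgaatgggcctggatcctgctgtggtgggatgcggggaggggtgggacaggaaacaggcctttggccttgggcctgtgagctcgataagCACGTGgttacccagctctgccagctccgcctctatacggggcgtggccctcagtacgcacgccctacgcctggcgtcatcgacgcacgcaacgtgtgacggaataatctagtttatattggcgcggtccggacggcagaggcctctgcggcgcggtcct
Nme1 (chr11:93968223-93968522, minus strand): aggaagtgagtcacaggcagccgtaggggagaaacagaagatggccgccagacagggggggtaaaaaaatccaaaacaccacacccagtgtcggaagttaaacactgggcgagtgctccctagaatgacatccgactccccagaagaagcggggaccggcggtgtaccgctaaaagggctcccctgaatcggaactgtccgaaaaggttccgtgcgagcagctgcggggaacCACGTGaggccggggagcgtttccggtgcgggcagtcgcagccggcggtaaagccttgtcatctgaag
Cad (chr5:31054530-31054829, plus strand): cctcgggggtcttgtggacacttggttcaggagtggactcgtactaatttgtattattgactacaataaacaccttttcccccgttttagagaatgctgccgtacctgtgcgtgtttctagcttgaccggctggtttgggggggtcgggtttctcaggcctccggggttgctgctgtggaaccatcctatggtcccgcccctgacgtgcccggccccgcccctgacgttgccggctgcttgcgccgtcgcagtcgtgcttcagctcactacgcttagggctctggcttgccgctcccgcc
The start of the E-box lay 7 bases before the gene start in Atic, 203 in Paics, 110 in Impdh2 and 18 in the Nme1 window shown, and a second Nme1 window held it 29 bases before its own start. A match of these letters is a description of the sequence and does not show binding. Sequence beyond the windows was not searched, so a window without the motif does not show that the gene lacks it. The Cad window is set on a start inside the gene, whose listed start is base 31054620.

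Whole reads recovered from the deposited FPKM values (fragments scaled to gene length and library size) came to 11.2 to 14.7 M reads per mRNA library of the sgNAT10 set and 1.51 to 3.15 M per footprint library. The counts of the sgMyc set came to 51.9 to 65.8 M per library. As a check of the edits, Nat10 mRNA was 5.36 and 5.30 FPKM in WT and 3.59 and 3.95 in sgNAT10. Myc mRNA in the same set was 115 and 117 FPKM in WT and 39.98 and 40.9 in sgNAT10, a log2 change of -1.49 (SE 0.03), and its change did not pass the test of a difference between the edits (adjusted p = 0.792). In the Myc set, Myc mRNA was 61.6 to 70.8 FPKM in WT and 21.1, 20.9 and 34.1 in sgMyc replicates 1, 2 and 3. The third sgMyc library stood apart. Across 11907 genes its log2 values correlated with sgMyc replicates 1 and 2 at a Pearson r of 0.930 each, against 0.995 between those replicates and 0.959 to 0.963 with the WT libraries. The enzymes of the sgMyc set are therefore given library by library, and its tests with and without that library. Although the library names in the labels begin with Tcell, T cell markers summed to at most 0.033 FPKM in any mRNA library. Summed endothelial and epithelial markers stayed under 1 FPKM in every mRNA library. These sums hold listed genes only. The sgNAT10 mRNA set listed 0 of 5 T cell, 2 of 3 endothelial and 2 of 4 epithelial markers, and the sgMyc set 2 of 5, 3 of 3 and 3 of 4. All 6 fibroblast markers were detected, with sums of 269 to 278 FPKM in WT and 517 to 541 in sgNAT10 mRNA. The 3 of 4 macrophage markers listed summed to 5.494 to 5.996 FPKM in WT and 12.2 to 13.7 in sgNAT10. Mitochondrially encoded genes summed to 1069 to 1121 FPKM in WT footprints and 168 to 262 in those of sgNAT10. The part of these values in the results below was not tested.

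In sgNAT10 cells, mRNA of 6 of the 10 enzymes fell, that of Ctps rose, and Umps, Atic and Impdh2 did not pass the test. The test was limma on log2(FPKM + 1), with p-values adjusted by Benjamini-Hochberg over all genes and a threshold of 0.05. So many genes changed in this comparison (63.3% of 11735 tested, 29.6% lower and 33.7% higher) that 7 of 10 called is near the background. The median log2 change of the 10 enzymes was -0.30, beside 0.01 for all genes tested.

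**Figure D1:**
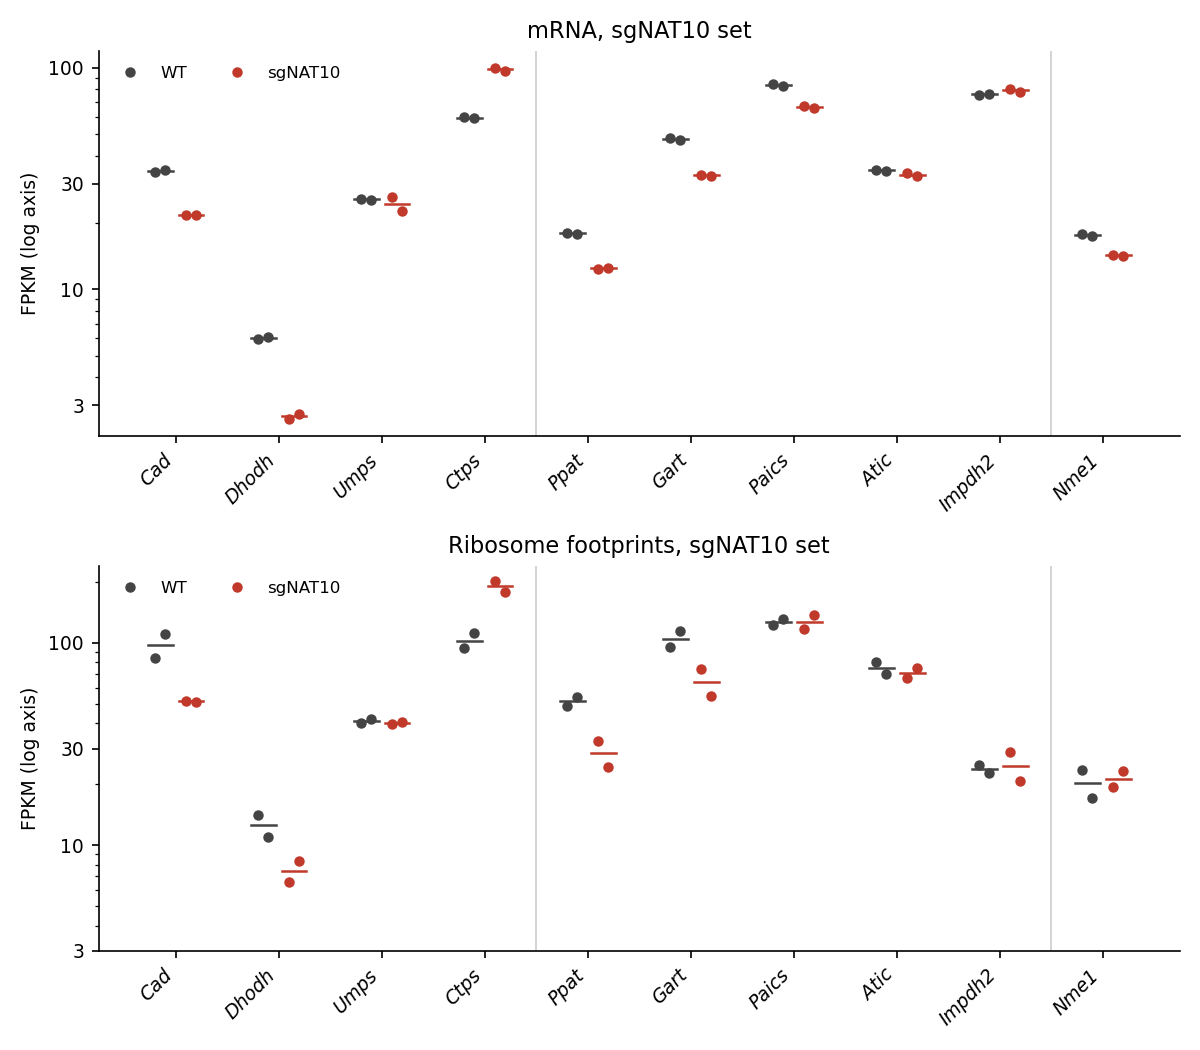
Level of each enzyme in every library of the sgNAT10 set, in FPKM on a log axis, for mRNA (top) and ribosome footprints (bottom). Points are libraries and short lines the mean of 2, and grey lines separate the pyrimidine, purine and interconversion genes. For mRNA the groups are apart in every enzyme but Umps, by little in Atic and Impdh2.

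The pyrimidine genes went in different directions. Cad, whose protein carries out the opening steps of the pathway, was at 33.7 and 34.5 FPKM in WT and 21.6 and 21.7 in sgNAT10, a log2 change of -0.64 (SE 0.03, limma adjusted p = 8.22e-05). Dhodh, the mitochondrial dehydrogenase that follows, was at 5.95 and 6.06 FPKM in WT and 2.61 and 2.74 in sgNAT10, a log2 change of -0.93 (SE 0.05, limma adjusted p = 0.000113). Both edited libraries lay below both WT libraries for these genes. Because 1 FPKM was added before taking logs, the change of the low Dhodh is understated: edgeR on recovered reads gave -1.18 (SE 0.07). Umps, which attaches the ring to ribose phosphate and makes the nucleotide UMP, was at 25.6 and 25.3 FPKM in WT and 26.1 and 22.6 in sgNAT10. Its groups overlapped, with a log2 change of -0.06 (SE 0.07, adjusted p = 0.467). Without sgNAT10 replicate 1 it passed, at -0.16 (limma adjusted p = 0.0250).

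Ctps, which makes CTP from UTP and so closes the branch, moved against Cad and Dhodh. It was at 59.9 and 59.3 FPKM in WT and 99.4 and 97.0 in sgNAT10, a rise of 0.71 on the log2 scale (SE 0.03, limma adjusted p = 4.61e-05). It was the only one of the 10 enzymes past the threshold in the upward direction.

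Of the purine genes, those of the early steps fell. Ppat, whose amidotransferase commits the pathway, was at 17.9 and 17.8 FPKM in WT and 12.4 and 12.5 in sgNAT10, a log2 change of -0.49 (SE 0.03, limma adjusted p = 0.000228). Gart, a protein with several activities in the pathway, was at 48.3 and 47.3 FPKM in WT and 32.8 and 32.5 in sgNAT10, a log2 change of -0.54 (SE 0.03, limma adjusted p = 0.000109). Paics, which adds carbon dioxide and aspartate to the growing ring, was at 84.2 and 82.4 FPKM in WT and 67.2 and 65.7 in sgNAT10, a log2 change of -0.32 (SE 0.03, limma adjusted p = 0.000527). In each of the 3, both edited libraries were below both WT libraries.

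Atic and Impdh2 differed little, although their WT and edited libraries did not overlap. Atic, which closes the ring to IMP, was at 34.5 and 34.3 FPKM in WT and 33.4 and 32.4 in sgNAT10, with a log2 change of -0.06 (SE 0.03, adjusted p = 0.156). With libraries scaled to equal medians it passed the threshold, at -0.12. Impdh2, which leads from IMP towards GTP, was at 75.3 and 76.4 FPKM in WT and 79.9 and 78.0 in sgNAT10, with a log2 change of 0.06 (SE 0.03, adjusted p = 0.144), and its sign turned under that scaling (-0.0015). Nme1, a nucleoside diphosphate kinase, was at 17.7 and 17.4 FPKM in WT and 14.3 and 14.2 in sgNAT10, a log2 change of -0.29 (SE 0.03, limma adjusted p = 0.00141). Nme1 is uncertain as a single gene, because its similar neighbour Nme2 was listed at only 0.232 to 0.644 FPKM here but at 129 to 241 in the sgMyc set.

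Ribosome footprints were less precise, and Ctps alone passed the test there. Of 9707 genes tested, 3.09% passed, 1.28% lower and 1.81% higher. Ctps was at 93.6 and 111 FPKM in WT and 202 and 177 in sgNAT10, a rise of 0.88 on the log2 scale (SE 0.16, limma adjusted p = 0.0465). That call was lost when any of the 4 footprint libraries was left out, where the adjusted p ran from 0.156 to 0.354. The rise itself remained, between 0.76 and 1.01.

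Cad, Ppat and Gart had footprints below both WT libraries in both edited libraries without passing limma's adjusted threshold. Cad was at 83.8 and 111 FPKM in WT and 51.7 and 50.9 in sgNAT10, with a log2 difference of -0.90 (SE 0.19, adjusted p = 0.0714). Ppat was at 48.7 and 54.1 FPKM in WT and 32.7 and 24.3 in sgNAT10, with a difference of -0.84 (SE 0.22, adjusted p = 0.109). Gart was at 94.7 and 114 FPKM in WT and 73.7 and 54.6 in sgNAT10, with a difference of -0.70 (SE 0.21, adjusted p = 0.137). With Ctps these are the 4 enzymes at an unadjusted limma p under 0.05, as were 2009 of the 9707 genes tested. edgeR on recovered reads, which called 777 of 9855 genes tested, called the same 4. Its adjusted p was 0.00196 for Cad, 0.0275 for Ppat, 0.0331 for Gart and 0.00195 for Ctps. The authors' deposited table also lists these 4, and no other of the 10, under an adjusted p of 0.05, the largest being 0.000748 for Gart. The share of all genes under that threshold was not counted for the authors' values. All of these counts rest on the same 4 footprint libraries.

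The remaining enzymes did not pass by either tool. Dhodh footprints were at 14.0 and 11.0 FPKM in WT and 6.55 and 8.34 in sgNAT10, with groups apart and a difference of -0.68 (SE 0.30, adjusted p = 0.275). Paics, whose mRNA fell, was at 122 and 131 FPKM in WT and 116 and 137 in sgNAT10, so that its groups overlapped and the difference was -0.0041 (SE 0.15). Nme1 footprints were at 23.5 and 17.2 FPKM in WT and 19.3 and 23.2 in sgNAT10, on 67 to 124 recovered reads per library, and overlapped too. Umps, Atic and Impdh2 had differences of -0.03, -0.08 and 0.04, each smaller than its SE.

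**Figure D2:**
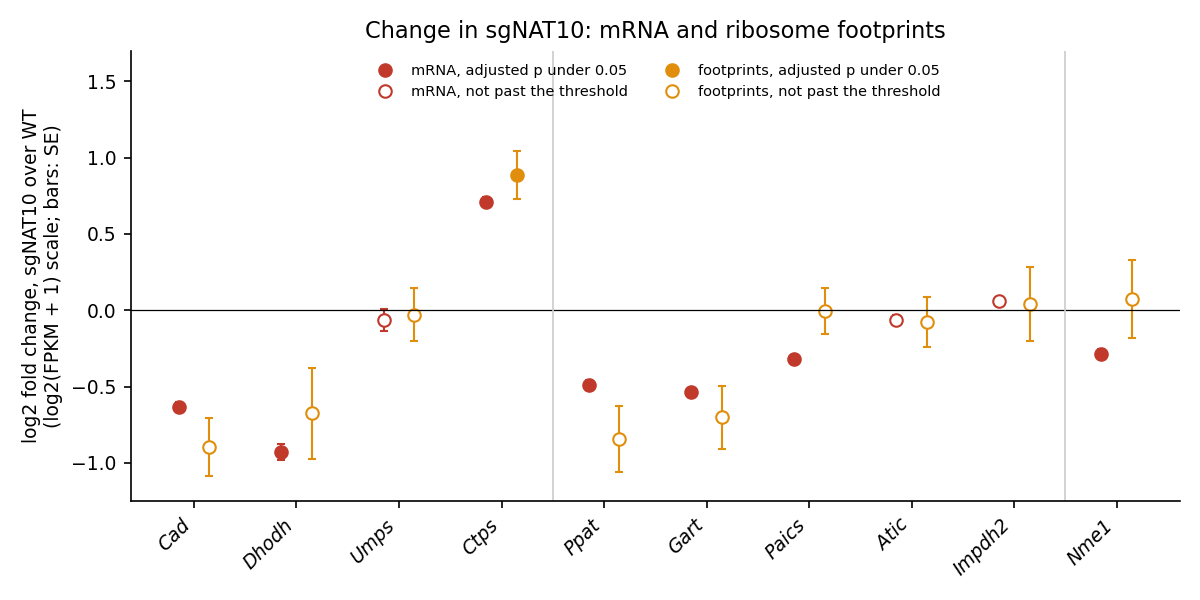
Log2 fold change of each enzyme in sgNAT10 over WT for mRNA (red) and ribosome footprints (orange), on the log2(FPKM + 1) scale, with bars for the SE and filled points for an adjusted p under 0.05. Ctps is above 0 in both assays, Cad, Dhodh, Ppat and Gart are below 0 in both, and the footprints of Paics and Nme1 lie near 0.

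Footprints per mRNA, the change in footprints beyond that in mRNA, was tested as the genotype by assay interaction in limma. None of the 10 enzymes passed, against 0.261% of 9200 genes tested. An unadjusted p under 0.05 was found for 1 of the 10 and for 1091 of the 9200 genes, so 1 of 10 is near the background. The 1 enzyme was Paics, with a difference of 0.32 (SE 0.13, unadjusted p = 0.0496, adjusted p = 0.420). With a separate variance for each assay the count was also 0; no other tool was run for it. The interval is wide, since the SE of the 10 enzymes ran from 0.13 to 0.26, so equal change in both assays is not shown. Without WT footprint replicate 1, which left 1 WT footprint library, the difference of Cad was -0.46.

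The enzymes spanned a wide range of footprints per mRNA. In WT the ratio of footprint FPKM to mRNA FPKM was 2.88 for Ppat and 2.85 for Cad, the highest of the 10, and 0.313 for Impdh2, the lowest. The median of 9012 genes was 1.16, with quartiles of 0.687 and 1.851. Impdh2 had the second highest mRNA level of the 10 in WT, at 75.8 FPKM, and the third lowest footprint level, at 23.7. Paics led in both assays, at 83.3 and 127 FPKM, and Dhodh was last in both, at 6.01 and 12.5. Neighbours that overlapped in WT were Atic and Cad in mRNA, and Gart with Ctps, Ctps with Cad, and Impdh2 with Nme1 in footprints.

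In the sgMyc set, none of the 10 enzymes passed the edgeR quasi-likelihood test over all 3 sgMyc libraries, where 16% of 16794 genes passed, 8.86% lower and 7.11% higher. None had an unadjusted p under 0.05, and DESeq2 and limma called none either. In the single libraries, 9 of the 10 enzymes, all but Paics, were below every WT library in sgMyc replicates 1 and 2 and above every WT library in replicate 3. Among all 16794 genes tested, 11.4% had this pattern, 38.3% were below every WT library in replicates 1 and 2, and 35.7% were above every WT library in replicate 3. The median log2 ratio of the enzymes to the WT mean was -0.46, -0.45 and 0.43 in replicates 1, 2 and 3, beside -0.03, -0.03 and 0.01 for all genes.

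**Figure D3:**
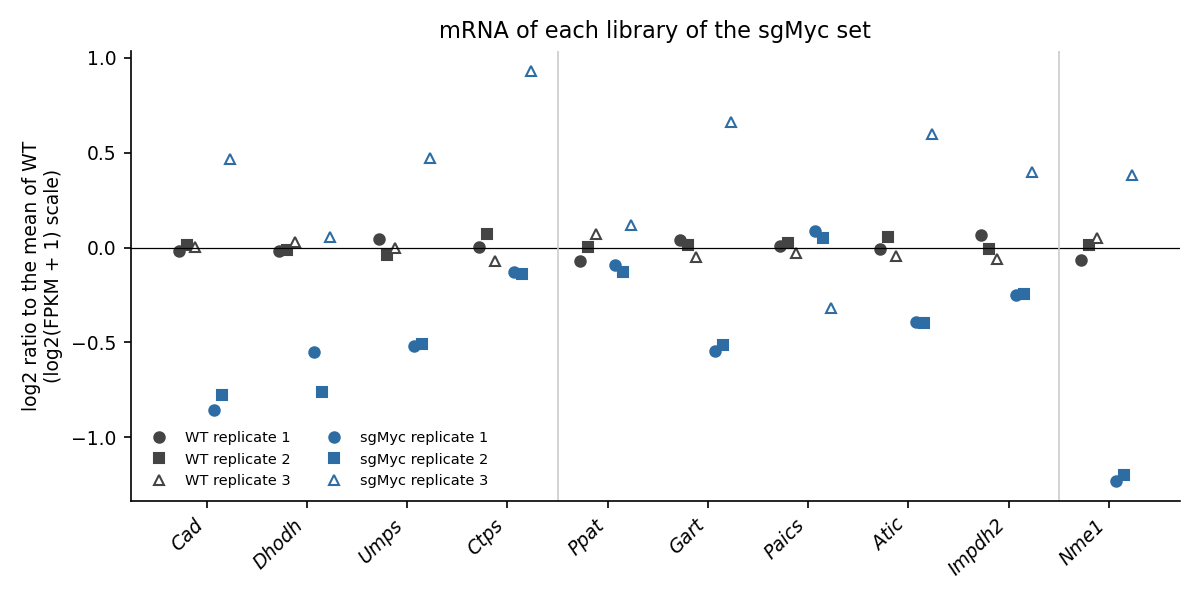
Log2 ratio of each library of the sgMyc set to the mean of its 3 WT libraries, on the log2(FPKM + 1) scale, for each enzyme. Filled blue points (sgMyc replicates 1 and 2) lie below the WT points for 9 enzymes and the open blue triangle (replicate 3) above them, and Paics shows the reverse order.

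Cad was at 26.6, 27.3 and 27.1 FPKM in WT, 14.5 and 15.3 in sgMyc replicates 1 and 2, and 37.7 in replicate 3. Nme1, the widest of the 10, was at 32.6, 34.4 and 35.4 FPKM in WT, 14.0 and 14.3 in replicates 1 and 2, and 44.7 in replicate 3. Ctps was at 60.6, 63.6 and 57.6 FPKM in WT, 55.3 and 54.8 in replicates 1 and 2, and 116 in replicate 3. Cad and Nme1 were farther from WT in the first replicates, and Ctps in the third. Gart was at 21.46 to 22.93 FPKM in WT, 14.9 and 15.3 in replicates 1 and 2, and 35.8 in replicate 3. Atic was at 22.3 to 24.0 FPKM in WT, 17.4 and 17.3, then 35.5. Umps was at 22.9 to 24.3 FPKM in WT, 16.1 and 16.3, then 33.0. In these 3, replicate 3 lay 0.47 to 0.66 above the WT mean on the log2(FPKM + 1) scale, with the other replicates on the opposite side. Impdh2 was at 48.8 to 53.2 FPKM in WT, 42.5 and 42.8, then 67.2. Dhodh was at 3.90 to 4.07 FPKM in WT, 2.40 and 1.93, then 4.16, barely above WT. Ppat was at 13.52 to 15.02 FPKM in WT, 13.30 and 12.96, then 15.54, so that both of its separations were small.

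Paics took the opposite course. It was at 118, 119 and 115 FPKM in WT, 125 and 121 in replicates 1 and 2, and 93.7 in replicate 3, where 42.3% of genes were below every WT library. Ppat and Paics lie head to head on chromosome 5 and overlap by 277 bases (RefSeq, GRCm38), and reads there cannot be assigned to one of them where counting does not use strand.

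Without sgMyc replicate 3, edgeR called 7 of the 10 enzymes lower and Paics higher, where 53.6% of 17485 genes were called, 26.9% lower and 26.6% higher. The largest change was in Nme1, at -1.24 (SE 0.05, adjusted p = 5.25e-08), followed by Dhodh at -0.84 (SE 0.10) and Cad at -0.82 (SE 0.03). Gart fell by 0.53, Umps by 0.51, Atic by 0.38 and Impdh2 by 0.22 on the log2 scale, each with an SE of 0.04. Paics rose by 0.10 (SE 0.03, edgeR adjusted p = 0.0202). Ctps was at -0.11 (adjusted p = 0.0541) and Ppat at -0.09 (adjusted p = 0.194), and neither passed. Leaving out any other library of the set gave no call among the 10. Mitochondrially encoded genes summed to 27491 to 30265 FPKM in WT and 17449 to 20007 in sgMyc, the lowest in replicate 3, and fibroblast markers to 1037 to 1062 in WT and 849.9 to 1188 in sgMyc, again lowest in replicate 3. The 3 of 4 macrophage markers listed summed to 10.9 to 12.3 FPKM in WT and 15.9 to 29.3 in sgMyc. The part of these values was not tested. Whether replicate 3 differs in its cells or in its handling was not tested.

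The changes under the edits were compared in 1 limma model of both mRNA sets, in which 21.2% of 9868 genes differed, 14.4% with the sgMyc change lower and 6.81% with it higher. The WT libraries of the sgNAT10 and sgMyc sets were themselves unlike. Gart was at a mean of 47.8 and 22.3 FPKM in them, Paics at 83.3 and 117, and fibroblast markers summed to 269 to 278 and 1037 to 1062. The part of this in the differences below was not tested. With all libraries, Ppat alone of the 10 differed, by 0.46 (SE 0.12, adjusted p = 0.0255), being lower in sgNAT10 and at -0.03 by edgeR in sgMyc. That call was lost, at adjusted p = 0.0607 to 0.0922, on leaving out any library of the sgNAT10 set or WT replicate 1 or 2 of the Myc set. Without sgMyc replicate 3, Ppat differed by 0.38 (SE 0.06), and 8 other enzymes differed as well, where 59.9% of 9862 genes differed, 36.5% lower and 23.4% higher. The change was more negative in sgMyc for Nme1 (-0.92), Ctps (-0.85), Umps (-0.45), Atic (-0.33), Impdh2 (-0.30) and Cad (-0.18), and more positive for Paics (0.39) and Dhodh (0.28). Gart had a difference of 0.0073 (SE 0.05, limma adjusted p = 0.914). The difference of Nme1 is uncertain, because its similar neighbour Nme2 was listed at very unlike levels in the sgNAT10 and sgMyc sets.

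**Figure D4:**
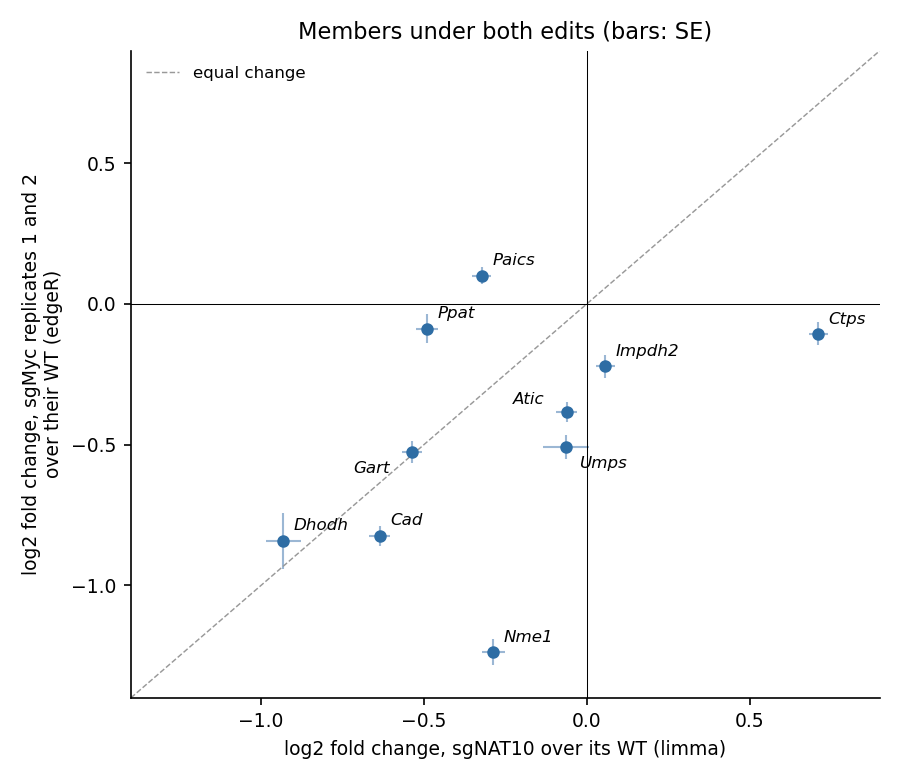
Log2 fold change of each enzyme in sgNAT10 over its WT (x axis, limma) against that in sgMyc replicates 1 and 2 over their WT (y axis, edgeR), with bars for the SE and a dashed line for equal change. Gart lies on the line, Cad and Dhodh near it, Nme1, Ctps, Umps, Atic and Impdh2 below it, and Paics and Ppat above it. The axes differ in scale: the 1 FPKM added for limma understates Dhodh on the x axis, where edgeR gave -1.18. Cad and Dhodh both passed the limma test of a difference between the edits without sgMyc replicate 3. Nme1 is uncertain across the sets, because its neighbour Nme2 was listed at very unlike levels in them.

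Other genes of nucleotide synthesis and salvage were followed as a list of 28, of which 26 were tested in sgNAT10 mRNA. There 11 fell and 9 rose, beside 29.6% and 33.7% of all genes, with a median log2 change of 0.01, the same as for all genes. The largest falls were in Dctd (-1.03), a deaminase that supplies dUMP, Aprt (-0.70), the salvage enzyme for adenine, and Pfas (-0.63), another enzyme of purine synthesis. Among those that rose were Ctps2 (0.49), the second CTP synthase, and Adss (0.41), which leads from IMP towards AMP. Of other purine synthesis genes of the list, Prps1 (-0.33) and Impdh1 (-0.60) fell, Prps2 (0.36) and Gmps (0.20) rose, and Adsl did not pass. Falls and rises among the purine genes of the list did not divide by early and late steps. In footprints Aprt fell (-0.94, SE 0.12, limma adjusted p = 0.0212) and no other gene of the list passed. In sgMyc with all libraries Dck, a kinase that salvages deoxycytidine, fell by 0.92 on the log2 scale (SE 0.12, edgeR adjusted p = 0.00490) and no other passed. It was at 22.4 to 24.2 FPKM in WT and 11.51, 11.52 and 14.2 in sgMyc replicates 1, 2 and 3, low in all 3. Of the 28 genes of the list, 16 were below every WT library in replicates 1 and 2 and above them in replicate 3. Rrm2, a subunit of ribonucleotide reductase, was one, at 47.5 to 52.6 FPKM in WT and 23.8, 23.4 and 57.5 in sgMyc. Without replicate 3, 20 fell and 5 rose, beside 26.9% and 26.6% of all genes, led by Rrm2 (-1.05), Dck (-1.0) and Dctd (-0.88) on one side, and Samhd1 (1.05), which degrades deoxynucleotides, Adssl1 (0.94), another adenylosuccinate synthase, and Ctps2 (0.83) on the other. Samhd1 was at 10.5 to 11.1 FPKM in WT, 21.7 and 21.8 in replicates 1 and 2, and 11.2 in replicate 3. Ctps2, at 16.8 and 17.2 in replicates 1 and 2, and Dctd, at 6.70 and 6.50, likewise had replicate 3 near WT, at 9.54 and 12.2 FPKM.

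**Figure D5:**
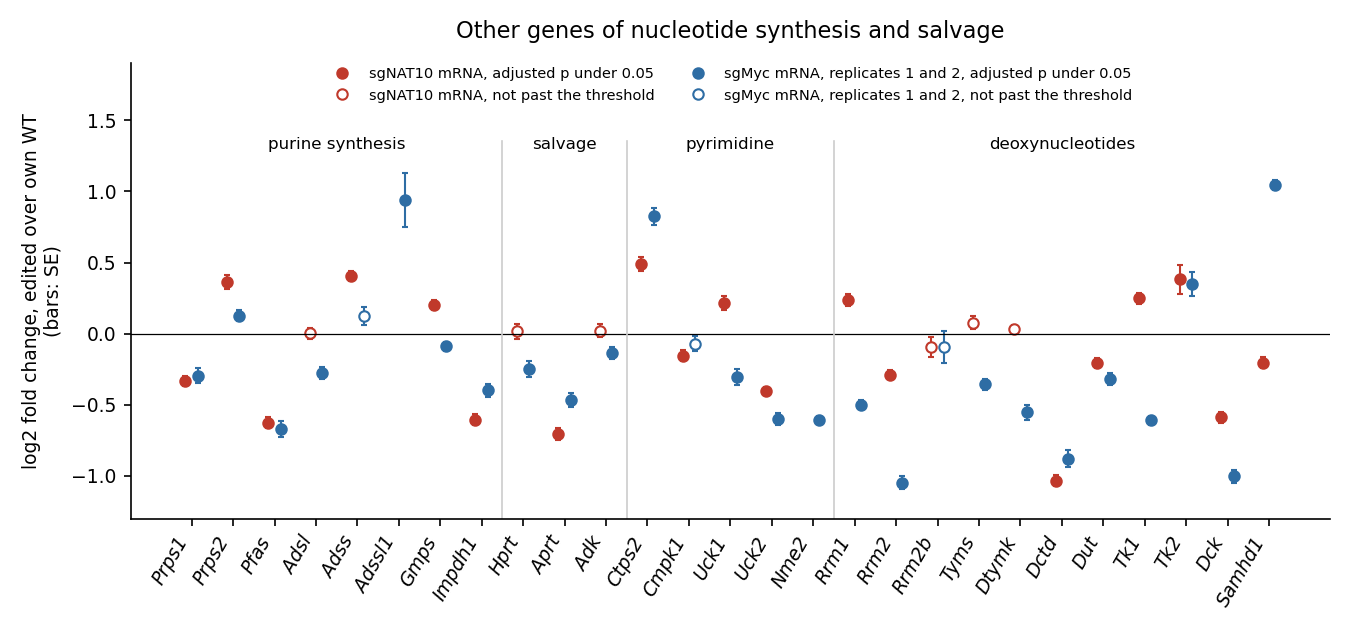
Log2 fold change over own WT of further genes of nucleotide metabolism, grouped by role, in sgNAT10 mRNA (red, limma) and in sgMyc replicates 1 and 2 (blue, edgeR), with bars for the SE and filled points for an adjusted p under 0.05. Most deoxynucleotide genes are below 0 in sgMyc, whereas Samhd1 is above 0 in sgMyc and below 0 in sgNAT10.

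Across the 10 mRNA libraries, each taken as a log2 ratio to its own WT mean, the profile of 9 enzymes (Dhodh was too low at under 5 FPKM) was most like those of Espl1, Prmt5, Gtpbp4, Psmd8 and Cct8 among 5855 genes, with Pearson r of 0.995 to 0.997. Within the set, 6 enzymes followed the mean of the others at r of 0.876 to 0.960, while Ppat (0.409), Ctps (0.297) and Paics (-0.436) did not follow it closely. These values describe the 10 libraries, of which sgMyc replicate 3 is 1, and the genes share them all.

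Acetylated RNA peaks, as listed by the authors on mm10, fell in the coding sequence of 3 of the enzymes. Where the mean reached 5 FPKM, 11.7% of 7145 genes held a peak, and so did 3 of the 9 enzymes at that level. This share was not matched to the mRNA levels of the 3, which in WT were 17.6 (Nme1), 34.1 (Cad) and 83.3 FPKM (Paics). The difference between genotypes is the authors' log2 value, read as sgNAT10 over WT because the header does not name its direction, and 1 library per arm allows no test. The peak in Cad (chr5:31074606-31075179) had a fold enrichment of 1.82 and a log2 difference of -4.31, the 34th lowest of 1358 peaks, or the 34th highest if the ratio is the other way up. The peak in Paics (chr5:76961207-76961459) had an enrichment of 1.45 and a difference of -0.0354, and that in Nme1 (chr11:93959425-93960728) had an enrichment of 1.60 and a difference of 0.311. The median difference over all peaks was 0.12. Dut, which removes dUTP, had the only peak of the wider list, with a difference of 0.623. Cad and Paics both had lower mRNA in sgNAT10, and their peak differences were far apart.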

How the data were processed

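The deposited sgNAT10 mRNA and footprint tables hold FPKM per gene and library with the authors' log2 fold changes and p-values, and the sgMyc table holds counts and FPKM, per the file headers. Each acRIP peak has, per the file headers, an enrichment ratio, a log2 difference and scores (log10 p or FDR). The submitters' processing notes name FastQC, Trim Galore, Bowtie2, featureCounts and mm10; which step made which file, strandedness and versions are not given in the sources used here. Per-sample columns left unused numbered 0.

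limma 3.58.1 (R 4.3.3, with a trend) was run on log2(FPKM + 1) of genes averaging 1 FPKM or more; footprints per mRNA and the difference between edits were interaction terms. Counts were tested with edgeR 4.0.16 (filterByExpr, TMM, quasi-likelihood); its SE was worked back from the F statistic. Benjamini-Hochberg adjustment covered every gene tested (threshold 0.05). FPKM ratios gave whole reads (tolerance 1e-09) for 99.83% of mRNA and 99.98% of footprint genes. Scripts were tested on simulated data. The sgMyc symbol Ctps1 was taken as Ctps. Peak sequences were not analysed here.

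The enzymes and the wider list were chosen with earlier results of these data known. Named were the 10 enzymes, up to 3 genes each way of the wider list per comparison, Myc and Nat10 as checks, the 5 most alike genes and every peak in an enzyme. A gene of the wider list that this rule names is not reported here. Alternatives covered pseudocounts, filters, scalings, DESeq2 1.42.0, a replicate block and leaving out libraries.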

Additional observations from a re-analysis of the deposited data

How the results depend on the processing

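In sgNAT10 mRNA the 7 called enzymes kept their direction and side of the threshold under every alternative that tested them (a minimum mean of 5 FPKM left out Dhodh), with 7 to 8 calls on leaving out each library. Of the uncalled, Umps ranged from -0.16 to 0.037 on leaving out libraries, and Impdh2 turned to -0.0015 with median scaling and -0.022 with quantile normalization. Footprint calls were 0 of 10 with a pseudocount of 0.1 FPKM, no filter, no trend, median scaling or the replicate block and on leaving out any library, and 4 with edgeR on recovered reads. There Paics turned to 0.0055. Leaving out footprint libraries moved Umps from -0.064 to 0.0055, Paics from -0.12 to 0.11, Atic from -0.17 to 0.020, Impdh2 from -0.19 to 0.26 and Nme1 from -0.15 to 0.29. The wider list in footprints gave 0 without a trend and on leaving out any library, and 3 with edgeR. Over all genes, footprint calls numbered 300, against 87 without a trend, 777 with edgeR and 0 to 9 on leaving out a library.

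In the sgMyc set, leaving out libraries gave 0 to 8 enzymes and 1 to 25 genes of the wider list, the highest without sgMyc replicate 3. DESeq2 gave 3 of the wider list. All genes called numbered 2682, against 1082 with the replicate block and 680 to 9368 on leaving out a library. Signs of the uncalled enzymes turned: Ppat was at 0.017 with DESeq2, 0.0038 with RLE factors and 0.0016 without a filter; Gart was at 0.037, 0.023 and 0.020 in the same order. Atic was at -0.063 with limma and -0.074 with the block, and Impdh2 at -0.011 with upper-quartile factors, -0.033 with limma and -0.035 with the block. Leave-one-out ranges were -0.82 to 0.0089 for Cad, -0.51 to 0.10 for Umps, -0.11 to 0.54 for Ctps, -0.088 to 0.052 for Ppat, -0.53 to 0.23 for Gart, -0.090 to 0.10 for Paics, -0.38 to 0.23 for Atic and -0.22 to 0.15 for Impdh2.

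For footprints per mRNA, leaving out footprint libraries gave 0 to 1 enzymes and 0 to 2 of the wider list, with -0.00063 to 0.069 for Umps, -0.38 to 0.048 for Gart, -0.11 to 0.081 for Atic and -0.24 to 0.21 for Impdh2. All genes called numbered 24, against 3 with 1 variance per assay, 1 with the block and 132 to 640 on leaving out a library. For the difference between edits, leaving out libraries gave 0 to 9 enzymes and 0 to 20 of the wider list, and 1 variance per set gave 3 of the wider list; all genes called numbered 2094, against 1223 with the block and 1109 to 5905. Ranges were -0.18 to 0.48 for Cad, -0.45 to 0.045 for Umps, -0.33 to 0.17 for Atic and -0.30 to 0.020 for Impdh2. Joining by Ensembl ID, chosen after seeing the data, changed no call among the enzymes. Of the 3 peaks, 1 had a log2 difference of at least 1 in size. The cause of these moves was not tested. Within a set, replicate numbers did not pair WT with edited libraries: deviations of those with the same number correlated at -0.018 to 0.024. The replicate block ended only the call of Ctps footprints (limma adjusted p = 0.0728). Whether mRNA and footprint libraries of the same genotype and number came from the same cells was not checked, and the model of footprints per mRNA did not pair them. Footprints, at the lowest depth, had a pooled SD of 0.52 on the log2 scale against 0.11 in sgNAT10 mRNA. It was 0.26 in the sgMyc set (0.12 without replicate 3), so the SD did not follow depth across the sets. Both interaction models take 1 spread per gene, although their arms differ in spread. With 1 variance per set, the difference between edits was called lower in 1864 genes and higher in 965, against 1422 and 672. With 1 variance per assay, calls for footprints per mRNA fell, as given above.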
